A study of Mus musculus with 4 samples.

Results

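Livers of mice with diet-induced steatohepatitis held macrophages with no captured transcript of Clec4f, the lectin that marks Kupffer cells, and none of Ccr2, the chemokine receptor that marks monocytes and their recent progeny. They are called Clec4f- Ccr2- macrophages here. The cells were chosen by measured values, in the 2 libraries from mice with nonalcoholic steatohepatitis (NASH), namely counts of unique molecular identifiers (UMIs), the tags that let each captured transcript be counted once. Barcodes needed 200 or more genes with a UMI, and no more than 10% of their UMIs could be mitochondrial. Such a barcode was selected as a Clec4f- Ccr2- macrophage when C1qa, C1qb and C1qc together made up at least 5 of every 1000 UMIs and when it held no UMI of Clec4f, Timd4, Ccr2, Cd3d, Cd3e, Cd3g or Cd79a. Cells with UMIs of both Mki67 and Top2a, genes of dividing cells, were left out. The rule found 243 cells, 105 in NASH library 1 and 138 in NASH library 2, among 2247 C1q-high barcodes of the NASH libraries and 6237 kept barcodes of all 4 libraries. Since the cells were selected on these genes, the levels of the genes in the rule are descriptions and carry no test.

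The study measured polyadenylated RNA of single cells in droplets (10x Genomics) from livers of C57BL/6J mice, with 2 libraries from mice on the diet labelled nash-amln, the amylin liver NASH diet rich in fat, fructose and cholesterol, and 2 from mice on a control diet. Its title concerns the liver niche and the diversity of myeloid cells in NASH. Livers were digested in the presence of flavopiridol, which blocks transcription, and cells were sorted as CD45+ CD146-, that is, leukocytes without an endothelial surface marker. The labels state neither an age, a time on the diet, nor that libraries are of different animals. The p-values then cover no more than how these libraries vary, which may be technical.

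Resident and incoming macrophages meet in a liver with steatohepatitis. Kupffer cells are seeded before birth, line the sinusoids and are kept by signals of endothelial cells, stellate cells and hepatocytes, and they carry Clec4f, Timd4, Vsig4, Cd5l and Marco. Blood monocytes enter through Ccr2 when Kupffer cells are lost, and in mice their progeny can pass through a Ly6c2-high, Ccr2-high stage to become macrophages that take up lipid near scars or to replace Kupffer cells in the sinusoid. Macrophages that do not become Kupffer cells are known for Cx3cr1, the fractalkine receptor, and for Trem2, Gpnmb, Spp1 and Cd9.

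Kept barcodes numbered 1592 and 1887 in the NASH libraries and 1321 and 1437 in the control libraries, with medians of 7633 and 7469 UMIs per cell in the NASH libraries and 3395 and 3053 in the control libraries. Clec4f- Ccr2- macrophages of NASH libraries 1 and 2 had medians of 6214 and 6611 UMIs per cell. Cells that met the rule but held Ccr2 had 8770 and 8303.5, and C1q-high cells with at least 1 Clec4f UMI and the same T cell, B cell and division conditions had 8440 and 7923. The Clec4f- Ccr2- macrophages were thus the shallowest of the 3 populations, and values from cells thinned to equal depth are given beside those it can set. The NASH libraries shared 5 barcodes, none of them a selected cell.

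The selected cells were first described by markers of macrophages and by 4 genes that earlier results of these data had linked with them. Cx3cr1, H2-M2 (a nonclassical MHC class I gene), Ms4a7 (a membrane protein of macrophages) and Olfml3 (a secreted olfactomedin protein, known in mice from microglia) lie on 4 different chromosomes. The bases upstream of their RefSeq starts are shown because these 4 genes were proposed as markers of the selected cells. They are the 250 bases before the start in build GRCm38.p6, 5′ to 3′ on the gene's strand. RefSeq gives Ms4a7 a second start, whose window is not shown, and the Cx3cr1 window lies within the longer GENCODE span of that gene given further on. Capitals mark matches to GAGGAA, the core motif bound by the macrophage factor PU.1, on either strand, where the other strand reads TTCCTC.
Cx3cr1, chr9:120068297-120068546, minus strand: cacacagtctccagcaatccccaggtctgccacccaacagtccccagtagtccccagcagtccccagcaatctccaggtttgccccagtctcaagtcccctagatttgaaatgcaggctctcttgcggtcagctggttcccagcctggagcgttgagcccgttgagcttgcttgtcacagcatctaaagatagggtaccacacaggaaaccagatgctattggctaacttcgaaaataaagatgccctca
H2-M2, chr17:37483555-37483804, minus strand: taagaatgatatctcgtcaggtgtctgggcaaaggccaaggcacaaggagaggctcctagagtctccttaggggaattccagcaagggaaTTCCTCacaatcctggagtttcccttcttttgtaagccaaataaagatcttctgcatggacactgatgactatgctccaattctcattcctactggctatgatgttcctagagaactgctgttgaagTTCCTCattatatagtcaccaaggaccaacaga
Ms4a7, chr19:11336147-11336396, minus strand: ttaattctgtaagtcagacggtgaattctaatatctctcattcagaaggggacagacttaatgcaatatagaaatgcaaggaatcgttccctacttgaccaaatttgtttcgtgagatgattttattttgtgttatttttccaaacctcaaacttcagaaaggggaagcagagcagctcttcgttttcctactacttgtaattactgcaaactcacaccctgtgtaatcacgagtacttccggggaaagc
Olfml3, chr3:103738002-103738251, minus strand: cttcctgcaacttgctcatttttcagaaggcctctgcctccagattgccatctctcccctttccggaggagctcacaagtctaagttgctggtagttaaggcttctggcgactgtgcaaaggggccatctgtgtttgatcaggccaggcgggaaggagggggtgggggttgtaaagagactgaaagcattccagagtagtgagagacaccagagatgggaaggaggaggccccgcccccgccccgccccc
The H2-M2 window held 2 matches, which begin 160 and 33 bases before the gene's start, and the windows of Cx3cr1, Ms4a7 and Olfml3 held none. Of 32851 such windows in the table, 23.3% held at least 1 match. The 4 windows shown held no AP-1 motif TGANTCA (6.75% of all windows), while the window of the second Ms4a7 start held 1. The 4 shown also lacked the MARE half-site TGCTGAC (3.81%), the RBPJ motif GTGGGAA (5.42%) and the SMAD palindrome GTCTAGAC (0.167%), each searched on both strands. A match is a stretch of letters and not a measured binding site.

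All 4 genes were higher in Clec4f- Ccr2- macrophages than in Clec4f-positive cells of the same library. Levels are in CPM (UMI counts per 1000000), the UMIs of a gene summed over the cells of 1 population and library and scaled to the summed UMIs of those cells. Cx3cr1 (GENCODE vM21, mm10, chr9:119901616-120069879) had 460.0 and 449.5 CPM in Clec4f- Ccr2- macrophages of NASH libraries 1 and 2, 499.5 and 589.8 CPM in Ccr2-positive cells, and 157.9 and 185.1 CPM in Clec4f-positive cells. Its annotated span overlaps 9 other genes, and the sources used here do not say how reads in shared stretches were counted. Both libraries put Ccr2-positive cells highest and Clec4f-positive cells lowest for this gene.

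H2-M2 (chr17:37480851-37483552) had 238.8 and 260.5 CPM in Clec4f- Ccr2- macrophages, 185.1 and 177.5 CPM in Ccr2-positive cells, and 74.8 and 44.9 CPM in Clec4f-positive cells. Ms4a7 (chr19:11321039-11336146) had 603.9 and 616.1 CPM, 431.3 and 467.8 CPM, and 265.2 and 258.0 CPM in the same order of populations. For both genes Clec4f- Ccr2- macrophages were highest in CPM and no CPM values overlapped. Shares of cells at equal depth, given further on, were closer to those of Ccr2-positive cells for Ms4a7. Olfml3 (chr3:103722222-103738001) had 89.6 and 114.2 CPM in Clec4f- Ccr2- macrophages, 121.0 and 80.4 CPM in Ccr2-positive cells, and 47.5 and 41.3 CPM in Clec4f-positive cells. Its levels overlapped between the first 2 of these populations, and both lay above Clec4f-positive cells. Clec4f-positive cells differed among themselves. H2-M2 had 125.0 and 81.0 CPM in those with Gpnmb and no Timd4, 37.9 and 25.4 CPM in those with neither, and 24.6 and 32.1 CPM in those with Timd4. Cx3cr1 had 209.8 and 252.1 CPM, 158.9 and 189.5 CPM, and 41.7 and 97.0 CPM in the same order. Every one of these values lay below those of Clec4f- Ccr2- macrophages. Since these genes were chosen with results of the same cells known, none of the 4 was tested.

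**Figure D1:**
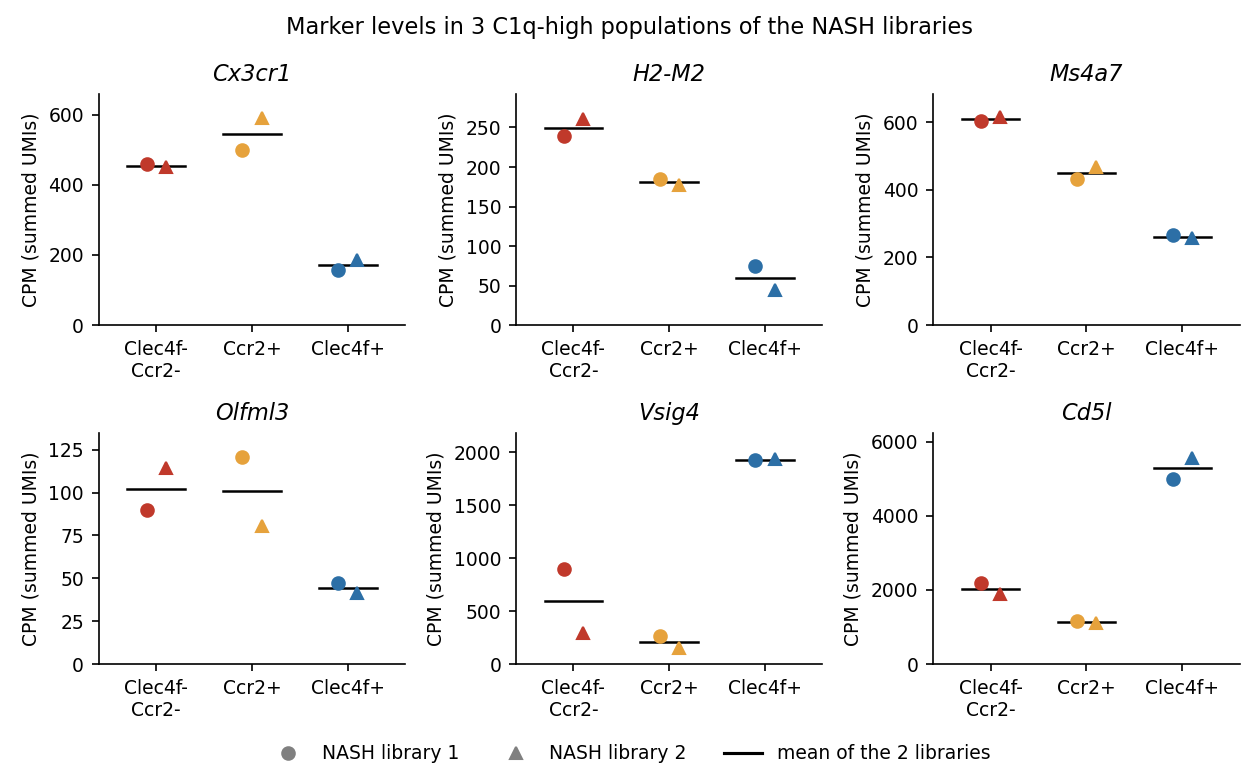
Level of 6 genes in CPM (y axis, linear, from 0) in Clec4f- Ccr2- macrophages, Ccr2-positive and Clec4f-positive C1q-high cells (x axis) of NASH library 1 (circles) and NASH library 2 (triangles), with the mean as a line. Cx3cr1, H2-M2, Ms4a7 and Olfml3 were higher in Clec4f- Ccr2- macrophages than in Clec4f-positive cells of both libraries, while Vsig4 and Cd5l, genes of Kupffer cells, were lower and above 0.

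In single cells, a Cx3cr1 UMI was present in 62.9% and 78.3% of Clec4f- Ccr2- macrophages of NASH libraries 1 and 2 and in 35.8% and 34.4% of Clec4f-positive cells. B cells, which should lack this gene, held it in 14.6% and 17.6% of cells, at medians of 5501.5 and 5569 UMIs. Free RNA can give such UMIs, but their source was not tested. After each cell was thinned to 1000 UMIs, which left out no cell of these populations, the Cx3cr1 shares were 27.6% and 34.1% in Clec4f- Ccr2- macrophages, 11.6% and 12.3% in Clec4f-positive cells, and 2.08% and 7.69% in B cells. Thinned H2-M2 shares were 14.3% and 20.3% in Clec4f- Ccr2- macrophages, 6.70% and 3.70% in Clec4f-positive cells, and 2.08% and 1.10% in B cells. Thinned Olfml3 shares of 4.76% and 10.1% in Clec4f- Ccr2- macrophages were set against 4.41% and 2.84% in Clec4f-positive cells. In NASH library 1 the exact 95% interval of the Olfml3 share, 1.56% to 10.8%, takes in the Clec4f-positive value.

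Macrophage genes that the rule did not use were present. The cells were selected on C1q, so genes that follow C1q from cell to cell describe the cells and are no independent check of the label. Csf1r, the receptor for the macrophage growth factor CSF1, had 740.9 and 745.3 CPM in Clec4f- Ccr2- macrophages, 719.8 and 776.6 CPM in Ccr2-positive cells, 928.1 and 924.5 CPM in Clec4f-positive cells, and 175.8 and 146.4 CPM in B cells. Adgre1, which encodes F4/80, had 419.3 and 356.6 CPM in Clec4f- Ccr2- macrophages, 328.9 and 294.0 CPM in Ccr2-positive cells, and 484.9 and 496.1 CPM in Clec4f-positive cells. Csf1r and Adgre1 were lower than in Clec4f-positive cells by less than 1 unit of log2 (-0.25, SE 0.08, and -0.28, SE 0.09, edgeR adjusted p = 0.0363 and 0.0486). Of 12 core macrophage genes 4 were higher, 3 were lower and the median log2 fold change was 0.011. Recruitment itself, the other word often used for these cells, is an origin that RNA levels do not measure.

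Cells just outside the rule were examined for its C1q, Ccr2 and Clec4f conditions. The Timd4 condition alone removed 3 and 2 cells, and the T cell, B cell and division conditions were not examined in this way. Few cells lay near the C1q threshold: 9 and 6 selected cells of NASH libraries 1 and 2 had 5 to 7.5 C1q UMIs per 1000, and 4 and 6 cells that met all other conditions had 2.5 to 5. Csf1r had 622 and 747 CPM in those just inside, against 319 and 470 CPM in those just outside. Olfml3 had 37.7 and 83.0 CPM just inside and 851 and 0 CPM just outside, so levels in so few cells vary widely. Cells with exactly 1 Ccr2 UMI, 35 and 33 of them, had 125 and 214 CPM of Plac8, a gene of monocytes, against 571 and 692 CPM in the 74 and 91 cells with at least 2. The 46 and 47 cells left out for exactly 1 Clec4f UMI had 1300 and 403 CPM of Vsig4. Clec4f UMIs also appeared in 27.1% and 26.4% of B cells, which do not express it. Such UMIs can come from free RNA, but their source was not tested. Ccr2 UMIs appeared in 20.8% and 18.7% of B cells. Of the Clec4f-positive cells of NASH libraries 1 and 2, 102 and 116 held exactly 1 Clec4f UMI. How many cells of either positive population held their 1 UMI from free RNA was not tested.

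The main comparison set Clec4f- Ccr2- macrophages against Clec4f-positive C1q-high cells (567 and 811 cells), both summed per library and both on the same diet. Several genes of lipid handling, of antigen presentation by MHC class II and of chemokine signalling were higher in Clec4f- Ccr2- macrophages, and many of Kupffer cell identity were lower. Among 9278 genes tested, 588 were called (6.34%), of which 281 were higher, 3.03% of those tested, and 307 were lower, 3.31%, by edgeR's quasi-likelihood test with the library as block (Benjamini-Hochberg adjusted p under 0.05). DESeq2 called 53 and 61. The median log2 fold change of all genes tested was -0.0036. A gene that follows Clec4f from cell to cell is set apart by the selection itself, so the lower genes describe how far the selection reached.

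The Kupffer identity list held 21 surface and secreted genes, all tested. It had 14 lower, none higher and a median log2 fold change of -1.49. DESeq2 called 9 of the 21 lower, and thinning left 9 lower of 18 tested. C6, a complement component made by Kupffer cells, had 5.43 and 10.7 CPM in Clec4f- Ccr2- macrophages of NASH libraries 1 and 2, against 120.0 and 196.8 CPM in Clec4f-positive cells (log2 fold change -4.22, SE 0.23, edgeR adjusted p = 2.28e-23). Ccl24, a chemokine for eosinophils, had 42.1 and 23.5 CPM against 287.8 and 319.0 CPM (-3.19, SE 0.16, edgeR adjusted p = 1.84e-18). Each of the selected populations lay far below each Clec4f-positive one for these genes.

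Fcna, a ficolin that binds microbial sugars, had 39.4 and 61.9 CPM in Clec4f- Ccr2- macrophages against 289.0 and 460.1 CPM in Clec4f-positive cells (log2 fold change -2.82, SE 0.13). Cdh5, the cadherin of endothelial cells that Kupffer cells also carry, had 25.8 and 16.02 CPM against 144.7 and 148.2 CPM (-2.78, SE 0.19). Fcna passed edgeR's test at adjusted p = 3.94e-26 and Cdh5 at 7.34e-18. Marco, a scavenger receptor, had no UMI in Clec4f- Ccr2- macrophages and 21.2 and 26.7 CPM in Clec4f-positive cells. Against a floor of 3 UMIs over both libraries, Marco was at least 13.6-fold lower.

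Other Kupffer genes were lower by less. Cd5l, a secreted scavenger protein, had 2187 and 1889 CPM in Clec4f- Ccr2- macrophages against 5001 and 5561 CPM in Clec4f-positive cells (log2 fold change -1.31, SE 0.08, edgeR adjusted p = 1.57e-14), and B cells had 375.3 and 166.7 CPM. The Cd5l level summed over all selected cells thus lay above that of B cells in both libraries. A cluster of the selected cells, described further on, had 246 CPM in NASH library 1, below the B cell value, and 1040 CPM in NASH library 2. How much Cd5l RNA came from free RNA was not tested. Vsig4, a complement receptor, had 895.6 and 296.8 CPM against 1924 and 1935 CPM, and with this spread between libraries it did not pass (-1.77, SE 0.76, edgeR adjusted p = 0.611). Folr2, a folate receptor, had 187.3 and 117.5 CPM against 807.4 and 943.1 CPM and did not pass either (-2.48, SE 0.34, edgeR adjusted p = 0.201), but it passed under 11 of 14 alternative settings.

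Of 12 transcription factors of the Kupffer lineage, 4 were lower and none was higher, with a median log2 fold change of -0.10. DESeq2 called 1 of them lower and thinning left 0. Nr1h3, which encodes the oxysterol receptor LXRα needed to keep Kupffer identity in mice, had 188.6 and 183.7 CPM in Clec4f- Ccr2- macrophages against 325.4 and 320.5 CPM in Clec4f-positive cells (log2 fold change -0.73, SE 0.10, edgeR adjusted p = 2.43e-07). Tfec and Rxra were lower too, with log2 fold changes of -0.94 and -0.61 (edgeR adjusted p = 0.00439 and 0.0214). Id3 had 289.0 and 543.5 CPM against 337.9 and 572.4 CPM, and Spic, a factor of iron-recycling macrophages, 23.1 and 45.9 CPM against 30.2 and 57.6 CPM. Id3 and Spic did not pass (edgeR adjusted p = 0.772 and 0.517), and for both the 2 libraries of 1 population lay further apart than the populations of 1 library.

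Genes of lipid-associated and scar-associated macrophages were a group that was higher. Of 24, all tested, 13 were higher and 1 was lower, with a median log2 fold change of 0.60. Gpnmb, a lysosomal glycoprotein, had 549.6 and 450.6 CPM in Clec4f- Ccr2- macrophages against 276.7 and 149.8 CPM in Clec4f-positive cells (log2 fold change 1.35, SE 0.11, edgeR adjusted p = 1.02e-10). Cd9, a tetraspanin, had 689.3 and 575.5 CPM against 394.9 and 271.7 CPM (1.01, SE 0.09, adjusted p = 1.57e-14 by edgeR). Neither gene overlapped between the populations.

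Trem2, the lipid-sensing receptor of such macrophages, had 1365 and 1215 CPM in Clec4f- Ccr2- macrophages against 916.0 and 767.5 CPM in Clec4f-positive cells (log2 fold change 0.69, SE 0.07, edgeR adjusted p = 1.02e-10). Lgals1, a galectin, had 584.9 and 446.3 CPM against 312.7 and 200.6 CPM (1.09, SE 0.09, edgeR adjusted p = 4.66e-15). Trem2 and Gpnmb were thus raised over a Clec4f-positive population in which they were also present. That population pools cells with and without Gpnmb. A Gpnmb UMI was present in 49.4% and 35.8% of Clec4f-positive cells and in 62.9% and 60.1% of Clec4f- Ccr2- macrophages. Neither gene was compared here with Gpnmb-holding Clec4f-positive cells alone. Spp1, which encodes osteopontin, had 1010 and 659.9 CPM in Clec4f- Ccr2- macrophages against 347.6 and 118.6 CPM in all Clec4f-positive cells (2.05, SE 0.40), but did not pass (edgeR adjusted p = 0.399). Spp1 passed under 9 of 14 alternative settings, DESeq2 among them (adjusted p = 0.000265, range over the alternatives 1.88e-152 to 0.656).

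Lipid genes differed in both directions. Apoe, the apolipoprotein, had 74530 and 66650 CPM in Clec4f- Ccr2- macrophages against 47850 and 49350 CPM in Clec4f-positive cells (log2 fold change 0.60, SE 0.06, edgeR adjusted p = 1.63e-10). Fabp4, a fatty acid carrier, and Pparg, the nuclear receptor that drives it in fat and macrophages, were higher by 1.37 (SE 0.16) and 1.36 (SE 0.27). For both genes the increase was larger in NASH library 2, with 148.4 CPM of Fabp4 against 48.8 and 82.2 CPM of Pparg against 23.6, than in NASH library 1, with 54.3 against 32.9 and 32.6 against 24.9. Fabp7, another carrier of fatty acids, was lower at 278.2 and 283.0 CPM against 997.0 and 1201 CPM (-1.90, SE 0.09, edgeR adjusted p = 5.34e-26), and Scd1, a fatty acid desaturase, was lower too (log2 fold change -1.85, SE 0.20). Of the 16 LXR target and apolipoprotein genes, 15 were tested, 2 were higher and 3 lower.

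Of 15 genes of MHC class II presentation tested, 6 were higher, namely H2-Aa, H2-Ab1, H2-Eb1, Cd74, H2-DMb1 and Ctss, and Ifi30, a lysosomal thiol reductase, was lower. The list's median log2 fold change was 0.11. H2-Aa had 9598 and 8988 CPM in Clec4f- Ccr2- macrophages against 6549 and 5293 CPM in Clec4f-positive cells (log2 fold change 0.73, SE 0.07, edgeR adjusted p = 3.79e-13). Cd74, the invariant chain that escorts class II molecules, had 25440 and 25660 CPM against 15550 and 14210 CPM (0.85, SE 0.06, edgeR adjusted p = 1.45e-16). The classical class II chains H2-Aa and H2-Eb1 and their chaperone Cd74 passed under all 14 alternative settings. Of 14 MHC class I genes tested, only B2m passed, at 0.27 (SE 0.07).

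Chemokine ligands and receptors differed one by one. Of 17 ligands tested, 8 were higher and 3 lower, and of 10 chemokine and chemoattractant receptors 4 were higher and 1 lower. Cxcl14 had 149.3 and 252.0 CPM in Clec4f- Ccr2- macrophages against 88.2 and 96.9 CPM in Clec4f-positive cells (log2 fold change 1.18, SE 0.12, edgeR adjusted p = 3.69e-10). Ccl6 was lower at 392.2 and 344.9 CPM against 699.1 and 741.1 CPM (-0.90, SE 0.09, edgeR adjusted p = 4.06e-12). C5ar1, the receptor for the complement fragment C5a, had 168.3 and 213.6 CPM against 97.8 and 91.1 CPM (1.09, SE 0.12), and Ccr1 had 31.2 and 25.6 CPM against 11.3 and 9.91 CPM (1.48, SE 0.28). Among matrix enzymes, Mmp14 was higher (1.16, SE 0.14) and so was Mmp12 (0.47, SE 0.08), while Mmp13 had 89.6 and 104.6 CPM against 64.3 and 85.1 CPM and did not pass (edgeR adjusted p = 0.052). The summed level of Mmp12 rested largely on a cluster of 83 selected cells, described further on. Mmp12 had 2310 CPM in them and 270 CPM over all other selected cells, so its increase does not describe the selected cells one by one.

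The largest increases included surface receptors and signalling adaptors. Cd93, a C-type lectin-like receptor, had 81.4 and 81.2 CPM in Clec4f- Ccr2- macrophages against 27.5 and 20.99 CPM in Clec4f-positive cells (log2 fold change 1.83, SE 0.17, edgeR adjusted p = 2.48e-13). Fcgr2b, the inhibitory receptor for IgG, had 89.6 and 82.2 CPM against 37.6 and 33.2 CPM (1.35, SE 0.16). Sh2d1b1, an adaptor of SLAM family receptors, and Slamf7, a receptor of that family, were higher by 1.79 (SE 0.21) and 1.19 (SE 0.18). Tgfbr1, a receptor for TGF-beta, was higher by 1.04 (SE 0.11). Of 97 named genes past the threshold, 56 also passed DESeq2, 60 passed without the library block, and 51 of the 91 still tested passed after thinning each cell to 2000 UMIs. Of the 30 with the largest changes in either direction, 26, 24 and 23 did. Among the genes named here, DESeq2 did not call Ccr1, Pparg, Slamf7, Tfec, Rxra, B2m or Marco, the fit without the block did not call Gpnmb, Lgals1, Fabp4, Pparg, Mmp12, Scd1, Tfec, Rxra or B2m, and thinning lost Ccr1, Fabp4, Pparg, Slamf7, Mmp12, Nr1h3, Tfec, Rxra and B2m.

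**Figure D2:**
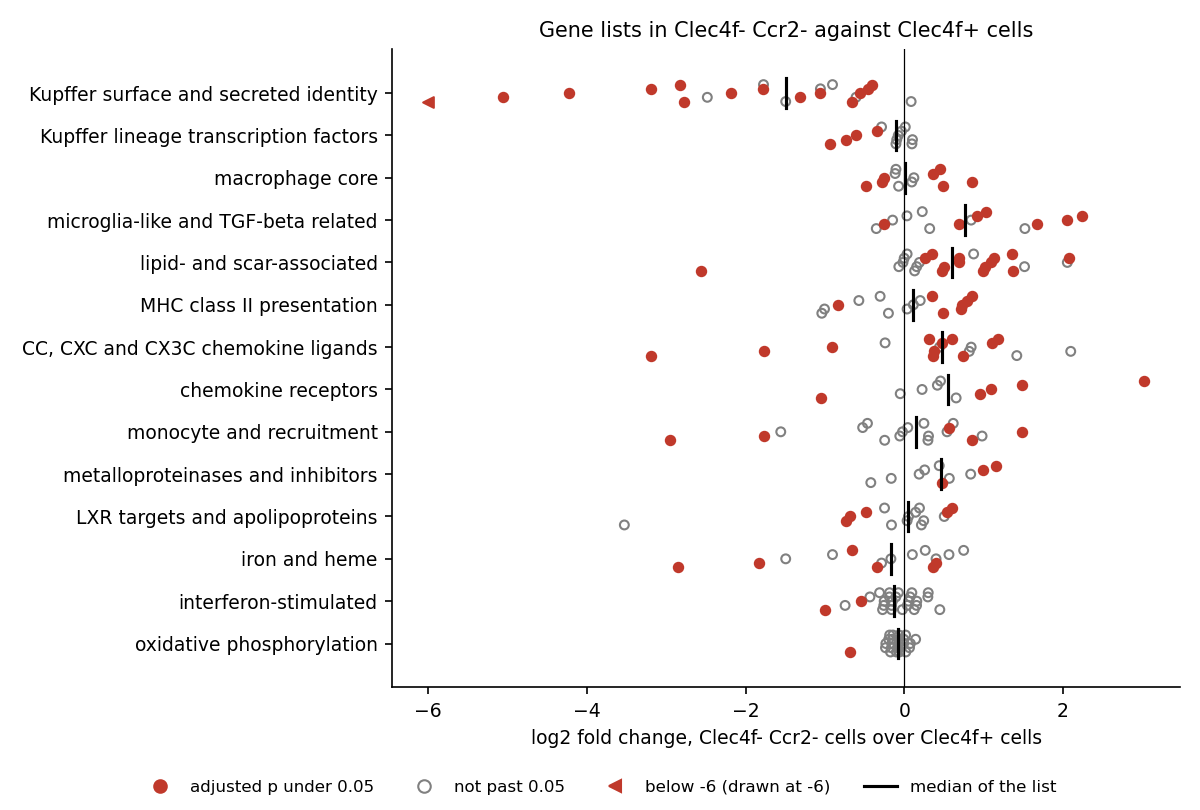
Log2 fold change of Clec4f- Ccr2- macrophages over Clec4f-positive cells of the NASH libraries (x axis) for each tested gene of 14 lists (rows), with genes past an adjusted p of 0.05 in red and the list's median as a black bar. Genes of Kupffer identity lie to the left (median -1.49), and those of lipid- and scar-associated macrophages to the right (median 0.60); Marco, with no UMI in Clec4f- Ccr2- macrophages, is drawn at -6.

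Several genes of monocytes were lower in Clec4f- Ccr2- macrophages than in Ccr2-positive cells, and several of lipid handling and of Kupffer cells were higher. The Ccr2-positive cells met the same rule with at least 1 Ccr2 UMI, in 109 and 124 cells, so only 1 gene of the rule differs. Of 6573 genes tested, 81 were called (1.23%), of which 48 were higher in Clec4f- Ccr2- macrophages, 0.730% of those tested, and 33 were lower, 0.502%, by edgeR's quasi-likelihood test with the library as block. DESeq2 called 11 higher and 4 lower. Of 20 monocyte and recruitment genes, 16 were tested, 7 were lower and none was higher, with a median log2 fold change of -0.94 against 0.011 for all genes tested. Genes that follow Ccr2 from cell to cell are set apart by the selection here too.

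Plac8 had 126.2 and 126.0 CPM in Clec4f- Ccr2- macrophages against 445.7 and 578.8 CPM in Ccr2-positive cells (log2 fold change -2.01, SE 0.13, edgeR adjusted p = 1.78e-05). S100a4 and S100a6, small calcium-binding proteins of migrating monocytes, were lower (log2 fold changes -1.64, SE 0.25, and -1.52, SE 0.23), as was S100a10 (-1.83, SE 0.20). S100a4 had 63.8 and 16.02 CPM against 145.8 and 93.4 CPM, and S100a6 had 150.6 and 78.0 CPM against 300.9 and 338.4 CPM, so the 2 libraries of Clec4f- Ccr2- macrophages differed but neither reached a Ccr2-positive level. Ly6c2, the antigen of inflammatory monocytes, had 61.1 and 21.4 CPM against 74.5 and 95.2 CPM and did not pass (edgeR adjusted p = 0.326). Tgfbi, an adhesion protein of the matrix, had 245.6 and 239.2 CPM against 471.6 and 466.0 CPM (-0.94, SE 0.10, edgeR adjusted p = 0.000695).

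Some genes of division were also lower than in Ccr2-positive cells. Of 9 cell cycle genes tested, 4 were lower and none higher, although cells with both Mki67 and Top2a were barred from both populations. Hmgb2 had 99.1 and 68.3 CPM in Clec4f- Ccr2- macrophages against 204.8 and 165.5 CPM in Ccr2-positive cells (log2 fold change -1.14, SE 0.15, edgeR adjusted p = 0.00269). Stmn1, which binds tubulin, had 42.1 and 12.8 CPM against 102.4 and 61.9 CPM (-1.62, SE 0.25, edgeR adjusted p = 0.00792).

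Lipid-associated genes were higher than in Ccr2-positive cells as well, 9 of 23 tested with none lower (median log2 fold change 0.46), though DESeq2 called 3. Gpnmb had 549.6 and 450.6 CPM in Clec4f- Ccr2- macrophages against 241.0 and 211.7 CPM in Ccr2-positive cells (1.15, SE 0.10, edgeR adjusted p = 0.000429). Fabp5, a fatty acid carrier, had 492.6 and 558.4 CPM against 298.9 and 243.1 CPM (0.98, SE 0.12, edgeR adjusted p = 0.00143), and Ctsd, a lysosomal protease, was higher by 0.77 (SE 0.08). Igf1, the insulin-like growth factor, had 496.7 and 457.0 CPM against 251.3 and 238.5 CPM (0.97, SE 0.10, edgeR adjusted p = 0.000621). Mmp13, a collagenase, had 89.6 and 104.6 CPM against 22.8 and 30.5 CPM (1.87, SE 0.20, edgeR adjusted p = 0.000668). Fabp5, Mmp13 and Gpnmb were uneven among clusters of the selected cells, described further on. In a cluster of 83 cells Fabp5 had 1120 CPM, against 202 CPM over all other selected cells, below both Ccr2-positive values. Mmp13 had 213 CPM in that cluster and 34.4 CPM over the others. Gpnmb had 174 CPM in both libraries of a cluster of 79 cells, below both Ccr2-positive values, and lay above them in the other clusters. Trem2 had 1365 and 1215 CPM against 1100 and 1035 CPM and did not pass (edgeR adjusted p = 0.145), nor did H2-Aa, at 9598 and 8988 CPM against 10790 and 10040 CPM (edgeR adjusted p = 0.416).

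Summed over all selected cells, Cd5l, Vsig4 and Folr2 lay between the levels of the Ccr2-positive and Clec4f-positive cells. Clustering of the selected cells, described further on, set apart 66 cells with 4880 CPM of Cd5l and 1190 CPM of Vsig4. The other selected cells had 924 CPM of Cd5l, below both Ccr2-positive values, and 321 CPM of Vsig4, above both. Of 15 Kupffer identity genes tested against Ccr2-positive cells, 6 were higher and none lower, with a median log2 fold change of 0.59, and DESeq2 called 2. Cd5l had 2187 and 1889 CPM in Clec4f- Ccr2- macrophages against 1166 and 1118 CPM in Ccr2-positive cells (0.84, SE 0.08, edgeR adjusted p = 0.00053). Cd207, which encodes langerin, had 451.9 and 532.8 CPM against 250.3 and 286.6 CPM (0.89, SE 0.10, edgeR adjusted p = 0.000758), and 493.7 and 478.8 CPM in Clec4f-positive cells. Folr2 had 187.3 and 117.5 CPM against 87.9 and 47.2 CPM (1.2, SE 0.16, edgeR adjusted p = 0.00274). Vsig4 was higher too, at 895.6 and 296.8 CPM against 269.9 and 155.3 CPM (1.40, SE 0.17, edgeR adjusted p = 0.00483). Both comparisons use the same Clec4f- Ccr2- sums, so their values are given side by side and not correlated. Of the 20 largest changes against Ccr2-positive cells, 7 passed DESeq2, 12 passed without the block and 13 of the 18 still tested passed after thinning. DESeq2 did not call Vsig4, Folr2, S100a6, Stmn1 or Hmgb2, and the fit without the block did not call Vsig4, Folr2, S100a4, S100a6 or Stmn1.

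Vsig4 split the selected cells. It had 0 UMIs in 53 of 105 and 89 of 138 Clec4f- Ccr2- macrophages of NASH libraries 1 and 2, and at least 3 UMIs in 26 and 21, which is 24.8% (exact 95% interval 16.9 to 34.1) and 15.2% (9.67 to 22.3). Among Clec4f-positive cells 74.1% and 72.3% had at least 3, and among Ccr2-positive cells 12.8% and 5.65%. The cells with at least 3 had medians of 20.5 and 10 Vsig4 UMIs and of 6584 and 6605 UMIs in all, against 6120 and 6617 in the others. Their total depth was thus like that of the others.

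Some other Kupffer genes were higher in the selected cells with Vsig4, and some were not. Selected cells with at least 3 Vsig4 UMIs had 3030 and 2298 CPM of Cd5l, against 1892 and 1807 CPM in selected cells with fewer. Fcna had 73.3 and 263.1 CPM in the cells with at least 3, against 27.5 and 21.8 CPM in those with fewer, and C6 had 15.7 and 44.9 CPM against 1.83 and 3.84 CPM. These 3 genes stayed below their Clec4f-positive levels. Ccl24 had 41.9 and 19.3 CPM in the cells with at least 3, against 42.1 and 24.3 CPM in those with fewer, and Cdh5 had 10.5 and 32.1 CPM against 31.1 and 12.8 CPM. Cx3cr1 did not follow the split: it had 533.8 and 397.9 CPM in the cells with at least 3 Vsig4 UMIs and 434.2 and 459.8 CPM in those with fewer, and H2-M2 had 240.8 and 340.1 CPM against 238.2 and 244.6 CPM. The split was chosen after the values were seen and was not tested.

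The comparisons were also made with the selected cells of at least 3 Vsig4 UMIs left out and the other populations unchanged. Since Vsig4 is a Kupffer gene and only one side was filtered, a lower Kupffer list is set by that step: 17 of the 21 genes were lower than in Clec4f-positive cells (median log2 fold change -2.06). Lipid-associated genes, which the filter did not use, had 13 of 24 higher, and Fabp5 was 0.86 above Ccr2-positive cells on the log2 scale and did not pass (edgeR adjusted p = 0.375, range over the alternatives 1.49e-27 to 0.375).

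**Figure D3:**
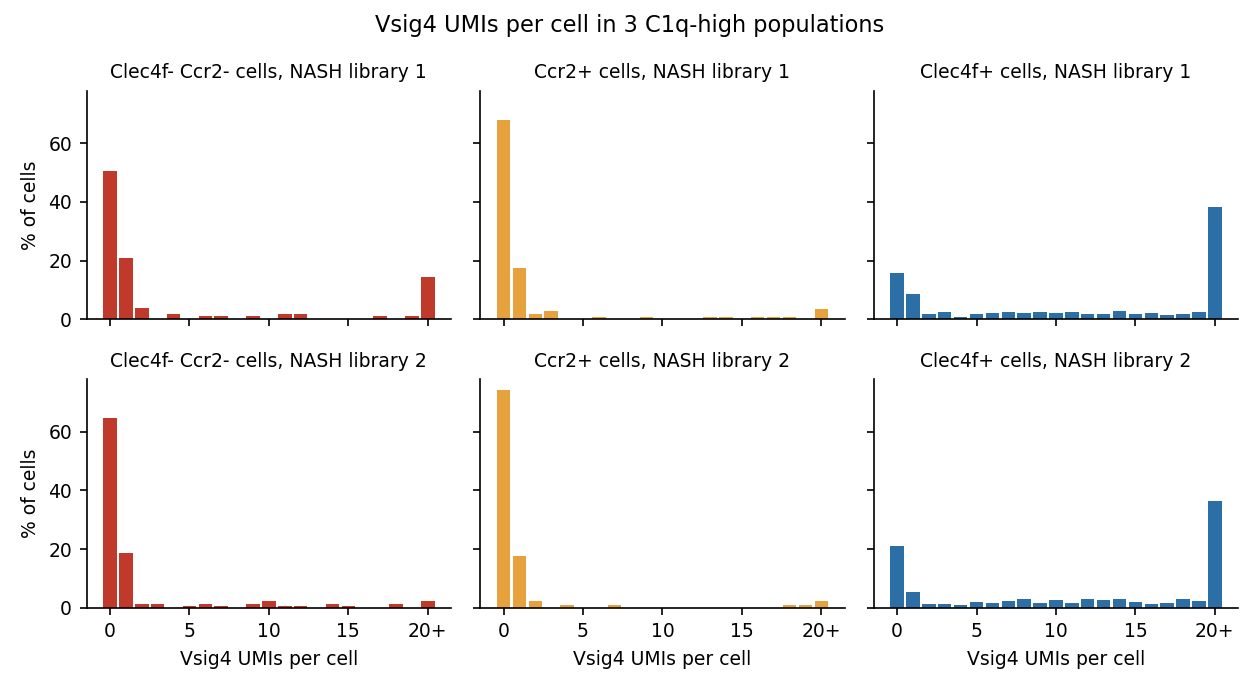
Share of cells (y axis, percent) by number of Vsig4 UMIs per cell (x axis, 20 or more pooled) in Clec4f- Ccr2-, Ccr2-positive and Clec4f-positive C1q-high cells (columns) of NASH libraries 1 and 2 (rows). Most Clec4f- Ccr2- macrophages have 0 or 1 UMI, and 24.8% and 15.2% have at least 3.

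Clustering of the 243 cells alone gave 4 sub-clusters, described by their leading genes with no test, since the same genes drew them. The first, 40 and 26 cells of NASH libraries 1 and 2, was led by Cxcl9, Cd5l, Slc40a1, Apoc1, Vsig4, Wfdc17, Cfp, Hist1h2bc, Ccl3 and Pltp. Cxcl9, an interferon-induced chemokine, had 50 UMIs in its cells of NASH library 2 and 0 in those of NASH library 1. Cd5l had 4260 and 5850 CPM there, against 924 CPM over all other selected cells, and Slc40a1, the iron exporter ferroportin, had 684 and 466 CPM, against 117 CPM over all other selected cells. Vsig4 had 1590 and 549 CPM in it. Its Gpnmb level was 427 and 493 CPM.

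The third, 32 and 51 cells, was led by Mmp12, Fabp4, Il1rn, Spp1, Atp6v0d2, Mmp13, Fabp5, Anxa1, Cxcl2 and Lgals3. Spp1 had 2450 and 1330 CPM in it, against 285 CPM over all other selected cells, and Mmp12, a macrophage elastase, had 2500 and 2180 CPM, against 270 CPM. Lgals3, a galectin of phagocytes, had 3510 and 4950 CPM, against 1100 CPM. Fabp4 had 246 CPM in this sub-cluster and 29.7 CPM over all other selected cells, which was below the 32.9 and 48.8 CPM of Clec4f-positive cells. Gpnmb had 1040 and 690 CPM, the highest of the 4 sub-clusters in each library. Cx3cr1 was lowest in this sub-cluster, at 162 and 314 CPM, and H2-M2 was highest, at 355 and 308 CPM.

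The second, 26 and 53 cells, had 834 and 610 CPM of Cx3cr1, the highest of the 4 sub-clusters in each library, and low Gpnmb at 174 CPM in both. Its leading gene Gzma, a protease of cytotoxic lymphocytes, had 67 UMIs in its cells of NASH library 2 and 0 in those of NASH library 1. Other leading genes were Ifit3, Ier5, Hes1, Sirpb1c, Gdf3, Gadd45g, Hspa1b, F11r and Hspa1a, among them the heat-shock genes Hspa1a and Hspa1b and the stress-induced genes Ier5 and Gadd45g. Hspa1a had 302 and 492 CPM in it, against 193 CPM over all other selected cells, and 84.7 and 443 CPM in the first sub-cluster. Gadd45g had 33.6 and 270 CPM in the second, Hes1 39.2 and 243 CPM, and Ier5 61.6 and 159 CPM. In NASH library 1 Gadd45g and Hes1 were thus below their 45.9 CPM in the first sub-cluster. Gdf3, a TGF-beta family ligand, had 11.2 CPM in the cells of NASH library 1 and 153 CPM in those of NASH library 2, whereas Sirpb1c had 162 and 171 CPM and F11r 123 and 105 CPM. Gzma, Gdf3, Gadd45g, Hes1 and Ier5 were thus uneven between the libraries, and Sirpb1c and F11r were not.

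The fourth, 7 and 8 cells, was led by genes of other cell types. S100a8 and S100a9, proteins of neutrophils and monocytes, had 3640 and 454 CPM and 2370 and 656 CPM. Retnlg, a listed neutrophil marker, had 854 and 0 CPM. Siglech and Ly6d, genes of plasmacytoid dendritic cells, had 220 and 437 CPM and 488 and 672 CPM. Cxcl13, a chemokine for B cells, came from NASH library 2, with 285 UMIs in it and 0 in the fourth sub-cluster of NASH library 1.

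**Figure D4:**
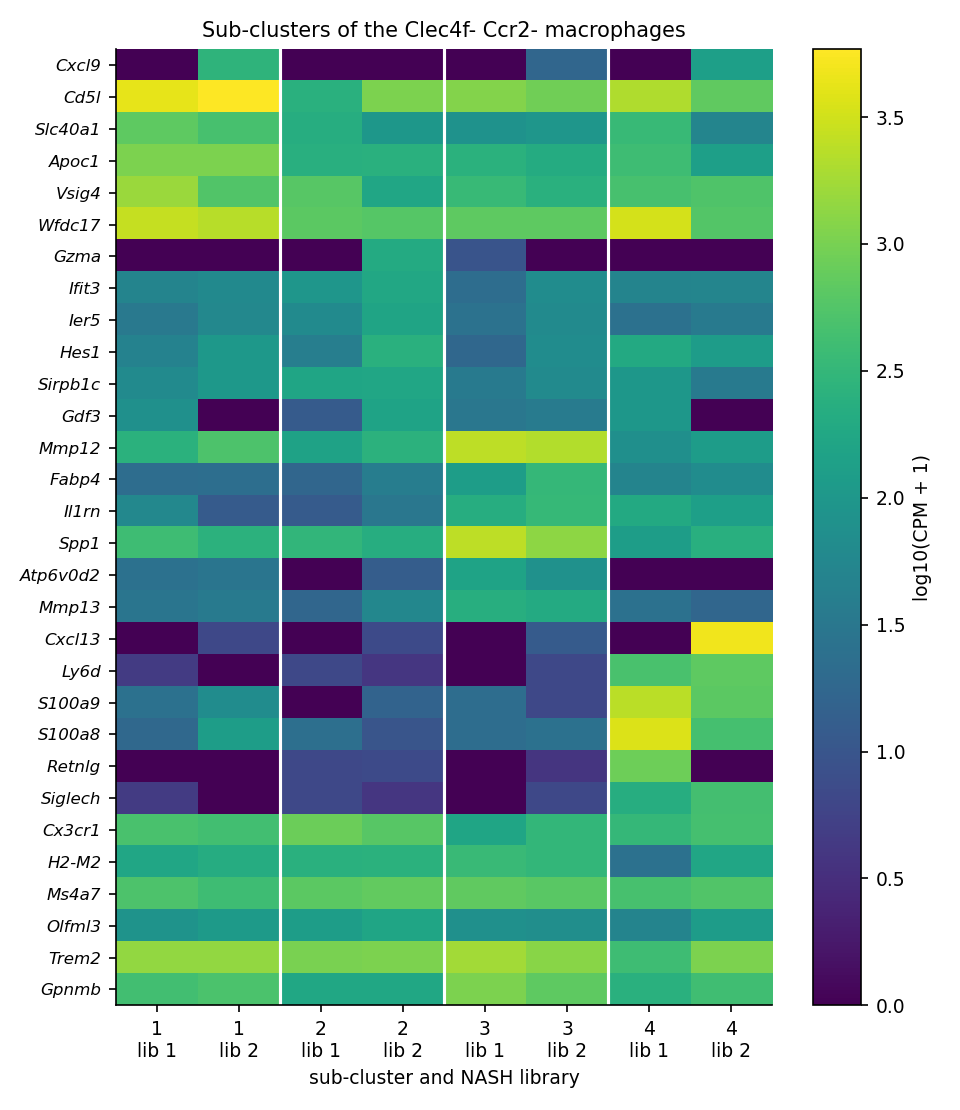
Level of leading genes of the 4 sub-clusters and of Cx3cr1, H2-M2, Ms4a7, Olfml3, Trem2 and Gpnmb (rows), as log10 of CPM plus 1 (colour), in each sub-cluster and NASH library (columns). Spp1, Mmp12 and Gpnmb are highest in sub-cluster 3, Cd5l in sub-cluster 1, and Cx3cr1 in sub-cluster 2, in both libraries.

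RNA of other cell types was measured beside these results. Against Clec4f-positive cells, 4 erythroid and platelet genes were tested and 4 were lower, and the summed level of the 8 listed genes was 2.71 and 5.34 CPM in Clec4f- Ccr2- macrophages against 83.9 and 89.3 CPM in Clec4f-positive cells. Neutrophil markers summed to 484.4 and 174.0 CPM in Clec4f- Ccr2- macrophages, 132.4 and 77.7 CPM in Ccr2-positive cells, and 141.0 and 527.9 CPM in Clec4f-positive cells. Of 3 neutrophil markers tested against Ccr2-positive cells, S100a8 and S100a9 were called higher. Of 6 tested against Clec4f-positive cells, Csf3r was called higher, and no neutrophil marker was called lower in either comparison. Ly6g, another listed marker, had no UMI in Clec4f- Ccr2- macrophages. Plasmacytoid dendritic cell markers summed to 138.4 and 222.1 CPM, 98.3 and 84.1 CPM, and 136.7 and 92.3 CPM in these populations, with all 8 listed genes present in Clec4f- Ccr2- macrophages. Markers of type 1 conventional dendritic cells, which also carry MHC class II, summed to 347.4 and 403.6 CPM, 324.7 and 408.6 CPM, and 355.0 and 397.6 CPM, and those of type 2 to 20.4 and 28.8 CPM, 47.6 and 47.2 CPM, and 31.7 and 29.4 CPM. Of 4 mature dendritic cell markers tested against Clec4f-positive cells, 1 was called higher and 0 lower, with a median log2 fold change of 0.76. Against Ccr2-positive cells 3 were tested and 0 called, with a median of 0.039. S100a8, at 221.2 and 65.1 CPM in Clec4f- Ccr2- macrophages against 50.7 and 23.1 CPM in Ccr2-positive cells, was called higher (log2 fold change 1.93, SE 0.20, edgeR adjusted p = 0.000621), and so was Ly6d (3.66, SE 0.40, edgeR adjusted p = 0.000695). The 15 cells of the fourth sub-cluster carried most of both: S100a8 had 1750 CPM in them and 30.5 CPM over all other selected cells, and Ly6d had 597 CPM and 3.18 CPM.

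The part of these cells' RNA in the remaining calls was not tested, except by leaving cells out. Of 64 markers of other cells that Clec4f-positive cells hold below 10 CPM, at least 3 UMIs were present in 22 Clec4f- Ccr2- macrophages. With such cells left out of both sides, 319 and 319 genes were higher and lower than in Clec4f-positive cells. Ly6d then had a log2 fold change of 0.05 and no longer passed. Gpnmb (1.47) and Cd5l (-1.32) kept their calls, and lipid-associated genes had 16 higher. Against Ccr2-positive cells 118 were higher and 95 lower, and S100a8 was still higher (2.05). The wider list of 84 markers, several of which macrophages express, had at least 3 UMIs in 181 of the 243 cells, and leaving those out left 21 higher and 14 lower genes against Clec4f-positive cells.

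The diet comparison asked how often such cells occurred. They made up 105 of 970 and 138 of 1277 C1q-high cells of the NASH libraries, 10.8% in each (exact 95% intervals 8.94 to 12.95 and 9.16 to 12.6), against 5 of 1065 and 16 of 929 in the control libraries, 0.469% and 1.72% (0.153 to 1.09 and 0.988 to 2.78). The mean share was 10.8% ± 0.0128 in NASH and 1.10% ± 0.886 in control (SD, n = 2 each), and no control library reached a NASH value. The exact two-sided permutation test over libraries gave p = 0.3333, the smallest p that 2 against 2 libraries allow. Of all kept cells they were 6.95% ± 0.508 in NASH against 0.746% ± 0.520 in control. Intervals cover counting error only.

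NASH cells had the higher depth, and a gene is less often at 0 UMIs in a deeper cell. The share was therefore taken again with each cell thinned to 1000 UMIs before the rule, and was then 40.9% and 36.7% of C1q-high cells in the NASH libraries against 1.66% and 5.12% in the control libraries. Thinning does not make these shares comparable: a Clec4f UMI was left in 72.5% and 77.3% of Clec4f-positive cells of the NASH libraries and in 97.9% and 96.9% of those of the control libraries, so the thinned NASH shares take in many Clec4f-expressing cells. A share of sorted cells does not give a number of cells per liver.

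**Figure D5:**
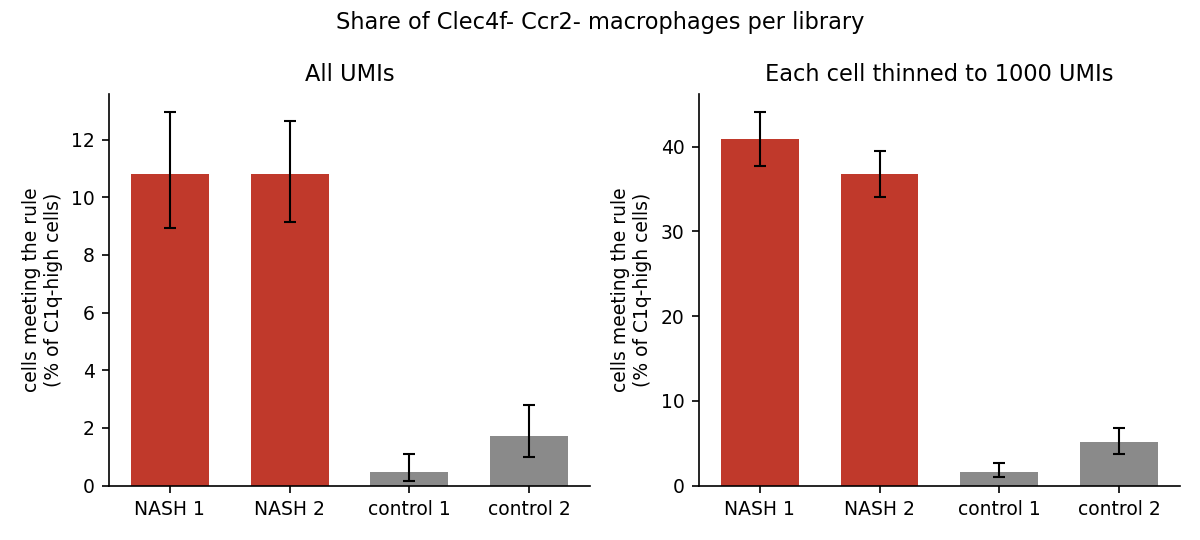
Share of C1q-high cells that met the rule (y axis, percent, from 0) in each NASH and control library (x axis), on all UMIs (left) and after each cell was thinned to 1000 UMIs (right, with its own scale), with exact 95% intervals as error bars. Both NASH libraries stand at 10.8% on the left, above 0.469% and 1.72% in the control libraries.

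The 21 control cells that met the rule were too few for a fit, with fewer than 10 in control library 1, and are given as values. They also carried markers of other cells. Endothelial markers summed to 81.4 and 69.4 CPM in the NASH cells and 1752 and 344.5 CPM in the control cells, with at least 3 UMIs in 3 of 5 and 2 of 16 control cells, and markers of type 2 conventional dendritic cells summed to 20.4 and 28.8 CPM in the NASH cells and 272.5 and 229.7 CPM in the control cells. Leaving out cells with at least 3 UMIs of any listed marker of other cells left 27 and 35 NASH cells and 1 and 0 control cells. The part of this RNA in the values was not tested. Cx3cr1 had 460.0 and 449.5 CPM in the NASH cells and 428.2 and 803.9 CPM in the control cells, and Ms4a7 had 603.9 and 616.1 CPM in the NASH cells and 583.9 and 295.3 CPM in the control cells. H2-Aa had 9598 and 8988 CPM in the NASH cells and 8914 and 7793 CPM in the control cells. Cx3cr1 was thus no lower in the control cells of library 2 than in the NASH cells, and it varied widely between the control libraries. Gpnmb and Spp1 had no UMI among 86645 UMIs of the control cells. Against a floor of 3 UMIs over both control libraries Gpnmb was at least 14.3-fold and Spp1 at least 23.5-fold higher in the NASH cells. H2-M2 had 420 UMIs in the NASH cells and 1 in the control cells, and Trem2 had 1365 and 1215 CPM in the NASH cells and 194.6 and 426.5 CPM in the control cells.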

How the data were processed

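Raw UMI counts per gene and barcode of 4 libraries, in tables of 27998 genes, were deposited by the authors as unnormalized count matrices. The submitters' processing notes name Cell Ranger, Seurat and the mm10 build, without versions, and whether counting used strand is not given in the sources used here. Total UMIs were 13749657 and 15619962 in the NASH libraries, and 5513953 and 5684819 in the control libraries. Precision is limited by the number of cells and UMIs, and exact (Clopper-Pearson) intervals cover counting error only.

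From these counts, kept barcodes were sorted into populations as described, UMIs were summed per library and population, and genes were tested with edgeR 4.0.16 (TMM factors, filterByExpr, robust quasi-likelihood fit, R 4.3.3), with the library as block and Benjamini-Hochberg adjustment over all genes tested. Each fit rests on 2 libraries and 1 residual degree of freedom before moderation. The library pairs the sums, since both come from 1 preparation of cells. Rule genes and the 4 markers were kept out of the test. The script was tested on simulated data. Shares were compared with an exact permutation test over libraries. Putative doublets, scored with Scrublet in scanpy 1.11.5, stayed in and were left out as an alternative. Sub-clusters used 1000 variable genes, 15 principal components, 15 neighbours and Leiden resolution 0.5. DESeq2 1.42.0, other scaling, filters, thresholds and thinning were the other alternatives.

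The members, markers and gene lists were chosen with earlier results of these data known, and so support no direction independently. The genes named were the 15 largest changes each way against Clec4f-positive cells and the 10 each way against Ccr2-positive cells. Up to 3 genes per list and a set reported whatever their values were also named. The largest changes were past the threshold and at 50 CPM or more in the higher population. Against Clec4f-positive cells they went the same way in both libraries. Against Ccr2-positive cells each library of the higher population lay above each of the lower one, so their lack of overlap is set by this choice. Genes named from the sub-clusters, the Vsig4 split and the settings that leave out cells with quiet markers of other cells (below 10 CPM in Clec4f-positive cells) were chosen after the data were seen. One gene is not reported here.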

Additional observations from a re-analysis of the deposited data

How the results depend on the processing

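Against Clec4f-positive cells, 281 genes were higher and 307 lower. DESeq2 called 53 and 61 (51 and 58 of them shared), thinning to 2000 UMIs 46 and 50, leaving out cells with any other cells' markers 21 and 14, and at least 3 Clec4f UMIs in the Clec4f-positive cells 472 and 506. Against Ccr2-positive cells, 48 were higher and 33 lower. DESeq2 called 11 and 4, upper-quartile factors 19 and 18, no filter on low counts 116 and 127, cells of at least 3000 UMIs 130 and 103, cells without any other cells' markers 7 and 5, and cells without quiet markers of other cells 118 and 95, and thinning gave 54 lower. The cause was not tested, except that thinning and leaving cells out keep fewer UMIs by construction.

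Without the replicate block, the pairing by library, 101 and 112 genes were called against Clec4f-positive cells and 27 and 14 against Ccr2-positive cells. The diet comparison of levels was not fitted, paired or not, since control library 1 held fewer selected cells than the minimum of 10 set for a fit.

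Adam8 turned to -0.10 against Clec4f-positive cells after thinning, and Vsig4 had -2.15 against Ccr2-positive cells once selected cells with at least 3 of its UMIs were left out, which that filter sets by construction. The NASH minus control difference in share was 9.72 percentage points, ran from 9.09 to 10.3 with 1 library left out, and was 7.89 to 35.4 under the other settings. Leaving out 1 NASH library left no residual degree of freedom, so those fold changes carry no test. With 1 NASH library left out, none of the named genes past the threshold changed sign. For the largest changes this was set by their choice, which required the same direction in both libraries. Named genes that did not pass were not checked for this. Depth limits the rule itself, since no UMI of Clec4f or Ccr2 does not show that the gene is silent.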
